A study of Mus musculus with 4 samples.

Results

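The regions described here are the 2 stretches of mouse chromosome 13 that hold the large Hist1 cluster of replication-dependent histone genes. They were taken by position on mm9, from 21.75 to 22.20 Mb (the first window) and from 23.55 to 23.90 Mb (the second window), and set beside the intervening stretch from 22.20 to 23.55 Mb. The rule uses position alone. Chromatin came from mouse R1 embryonic stem cells, a 129SV line cultured in the presence of LIF and taken at passages 13 to 18, and no genetic change or treatment is stated for any group. The 4 groups were DNA without immunoprecipitation (Input), DNA recovered with control IgG, DNA recovered with an antibody that the labels name LSD1, and DNA recovered with an antibody against H3K4me2, histone H3 dimethylated at lysine 4. Each group was 1 library. The windows held 81 of the 37520 regions of the 3 deposited peak lists. These were 76 H3K4me2 peaks, 5 LSD1 peaks and 0 IgG peaks.

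Replication-dependent histone genes supply the core histones H2A, H2B, H3 and H4 and the linker histone H1 during S phase, when new DNA is packed into nucleosomes. They are short genes without introns, their mRNAs end in a stem-loop in place of a poly(A) tail, and many copies encode the same or nearly the same protein. Embryonic stem cells divide fast and spend much of their cycle in S phase. H3K4me2 is found around promoters and enhancers, and LSD1 is a demethylase that acts on mono- and dimethylated lysine 4 of H3, so the mark studied here sits on the product of one of these gene families.

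The RefSeq gene table at hand is of another assembly (GRCm38.p6), so it gave the names and neighbours of the genes but no gene for any peak. It lists 57 genes of the cluster on chromosome 13, of which 3 are pseudogenes. The first group of neighbours, from H2bc13 to H2bc11, has 24 genes with 1 H1, 8 H2a, 8 H2b, 2 H3 and 5 H4 members. The second group, from H4c8 to H2ac1, has 32 genes with 5 H1, 7 H2a, 7 H2b, 7 H3 and 6 H4 members. A single pseudogene, H2af-ps2, lies apart from both. Between these groups the table lists 147 other genes, among them 75 vomeronasal receptor genes and pseudogenes (Vmn1r), which serve pheromone sensing, and 46 tRNA genes. Abt1, Btn1a1, Btn2a2 and Zfp322a also lie there.

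Promoter sequences were found for 51 of the 57 genes (RefSeq, GRCm38.p6), taken as the 250 bases before the annotated start. Motifs known from histone promoters were searched on both strands; the 3 given here do not contain one another. H4bc24, whose older symbol is Hist1h2br, was counted as an H2b gene. TATAAA was found in 26 of the 51 promoters (51.0%) against 13.0% of all 27025 promoters of that length. CCAAT was found in 43 of the 51 (84.3%) against 34.5% of all promoters. All 6 H1, 13 H2a, 14 H2b and 7 H3 promoters held CCAAT, and 3 of the 11 H4 promoters did. ATTTGCAT, the octamer motif known from H2B promoters, was found in 5 of 14 H2b and 5 of 13 H2a promoters and in 0 of the 6 H1, 7 H3 and 11 H4 promoters, against 1.61% of all promoters. Of 12 neighbouring pairs of an H2a and an H2b gene, 11 ran on opposite strands, and in 8 the start of one gene lay within the 250 bases before the start of the other, at 163 to 248 bases. Both promoters of such a pair contain the bases between the starts, so the same motif there was counted for the H2a and the H2b gene. The H2a and H2b counts above are thus not independent. The sequences below show the short, paired starts of this cluster. The first is the 228 bases between the starts of H2bc13 and H2ac13, read on the minus strand. It begins beside the start of H2ac13 and ends at the start of H2bc13. The others are the 120 bases before the start of the first H1, H3 and H4 gene in table order. They are on the minus strand for H1f5 and on the plus strand for H3c10 and H4c11. Capitals mark TATAAA and CCAAT on either strand.
H2bc13 and H2ac13: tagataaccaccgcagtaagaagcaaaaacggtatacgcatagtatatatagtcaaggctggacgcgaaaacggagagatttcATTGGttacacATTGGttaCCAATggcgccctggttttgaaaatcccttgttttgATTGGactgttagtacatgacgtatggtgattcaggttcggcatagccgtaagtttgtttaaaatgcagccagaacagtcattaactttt
H1f5: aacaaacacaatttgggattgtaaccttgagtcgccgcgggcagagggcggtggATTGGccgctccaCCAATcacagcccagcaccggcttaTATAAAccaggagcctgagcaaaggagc
H3c10: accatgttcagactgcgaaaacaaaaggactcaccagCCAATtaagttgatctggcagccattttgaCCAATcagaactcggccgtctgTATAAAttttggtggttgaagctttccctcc
H4c11: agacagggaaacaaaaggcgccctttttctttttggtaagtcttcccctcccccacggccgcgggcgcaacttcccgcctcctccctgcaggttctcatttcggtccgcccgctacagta
In the stretch between H2bc13 and H2ac13 the CCAAT letters occur on both strands and TATAAA does not occur. H1f5 and H3c10 hold both motifs and H4c11 holds neither in the 120 bases shown.

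Depth limits what single regions can show. The libraries held from 3801082 reads (Input) to 6416657 reads (H3K4me2), and levels are given as RPM, the reads of a region for each 1000000 of its library. With 1 library a group there is no replicate check and no p-value, and each difference is one between these libraries. The intervals given are 95% intervals that cover counting error only. The name LSD1 follows the label of the antibody, since the catalogue number given there is known for another supplier's antibody against a histone mark.

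The Hist1 windows were high in H3K4me2 and, to a lesser degree, in LSD1, while the controls differed little from each other. In the first window the level was 433 RPM per Mb in Input (402 to 465), 435 in IgG (408 to 464), 716 in LSD1 (684 to 749) and 1124 in H3K4me2 (1085 to 1163). In the second window it was 445 in Input (410 to 482), 466 in IgG (434 to 500), 789 in LSD1 (751 to 829) and 1253 in H3K4me2 (1207 to 1300). An even spread over the genome would give 387 RPM per Mb in every library. Both ChIP libraries thus lay above both controls in each window, and no interval of a ChIP library reached one of a control. In both windows together, H3K4me2 exceeded IgG 2.63-fold (2.49 to 2.78) and LSD1 exceeded IgG 1.67-fold (1.57 to 1.77). IgG and Input differed by less than the counting error, at 1.02 (0.953 to 1.10).

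The 2 windows were alike in these ratios. H3K4me2 to IgG was 2.58 (2.40 to 2.78) in the first and 2.69 (2.48 to 2.91) in the second. LSD1 to IgG was 1.65 (1.52 to 1.78) and 1.69 (1.55 to 1.85), and LSD1 to H3K4me2 was 0.637 (0.601 to 0.674) and 0.630 (0.593 to 0.670). The first value divided by the second was 0.962 (0.862 to 1.07) for H3K4me2 to IgG, an interval that holds 1.

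The intervening stretch was much lower. Its levels were 333 RPM per Mb in Input, 284 in IgG, 330 in LSD1 and 350 in H3K4me2. H3K4me2 to IgG in the windows was 2.13 times that of the intervening stretch (exact interval of the odds ratio 1.97 to 2.31), and LSD1 to IgG was 1.43 times (1.32 to 1.56). LSD1 to H3K4me2 went the other way, at 0.672 times (0.629 to 0.719). IgG to Input was also higher in the windows, 1.20 times (1.09 to 1.33), so the controls did not match across these stretches. With Input as the control the first 2 contrasts were larger, at 2.56 (2.35 to 2.79) and 1.72 (1.58 to 1.88).

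**Figure D1:**
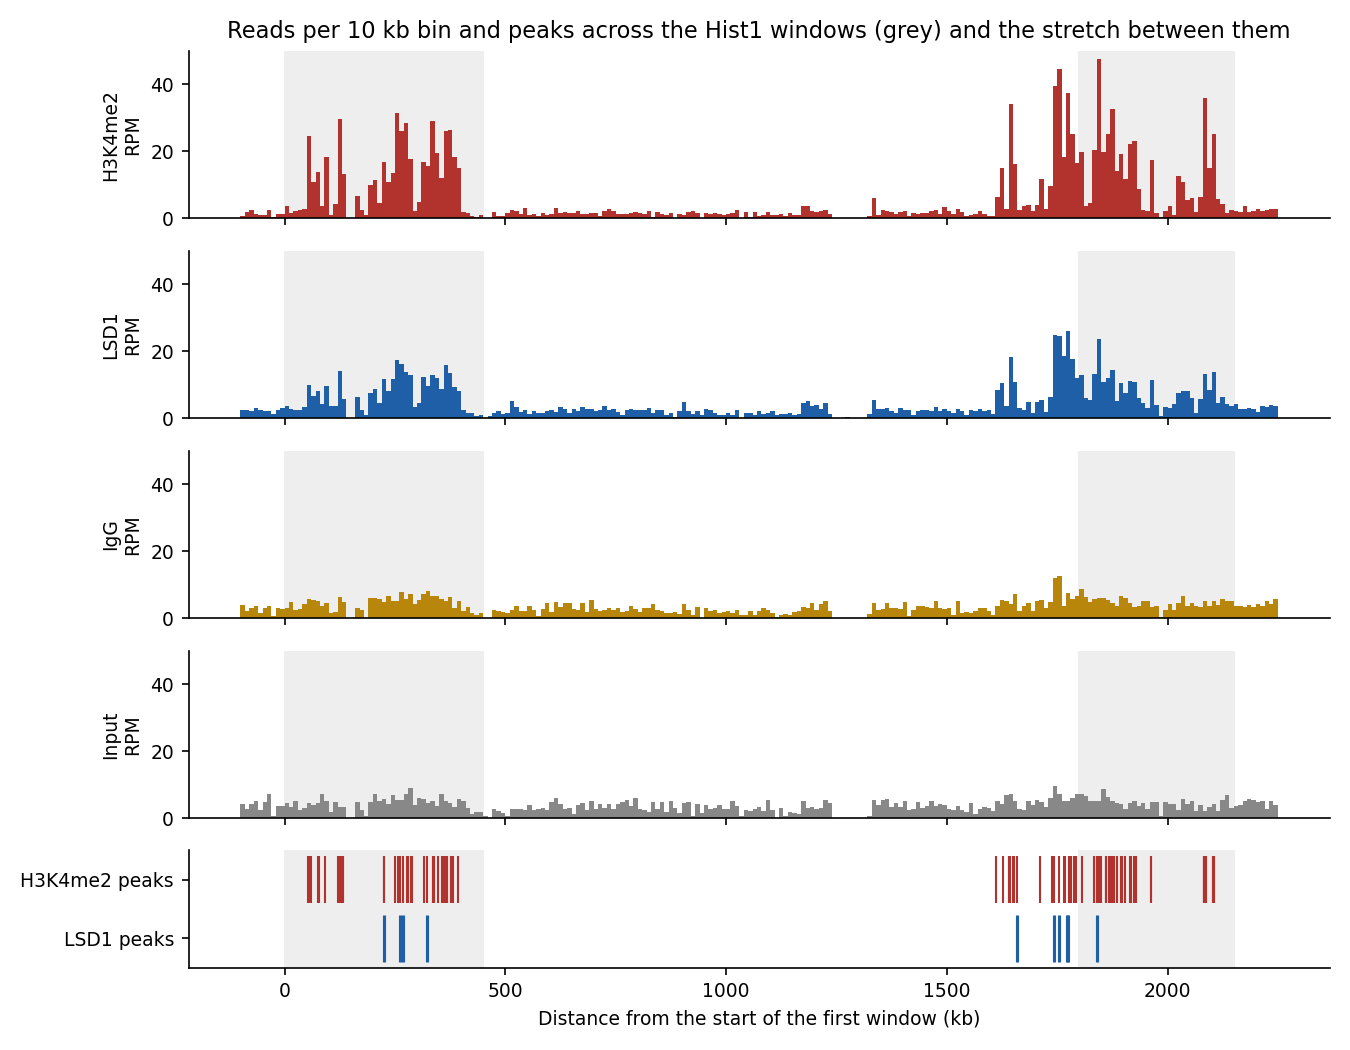
Reads per 10 kb bin, in RPM, of the 4 libraries (upper 4 panels, same vertical axis) and the places of the H3K4me2 and LSD1 peaks (bottom) against the distance in kb from the start of the first window; the 2 windows are grey. H3K4me2 reaches 47.7 RPM in its highest bin, in the second window, and the long stretch between 22143452 and 23362284 holds no peak of any list.

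The intervening stretch is not one kind of chromatin. Its first 1.16 Mb, up to its first H3K4me2 peak, held 0 peaks of the 3 lists. A count of 0 allows up to 3 peaks of a list. The levels there were 299 RPM per Mb in Input, 240 in IgG, 207 in LSD1 and 152 in H3K4me2, so that H3K4me2 was at 0.631 of IgG (0.582 to 0.683) and LSD1 at 0.862 (0.800 to 0.930). The remaining 0.188 Mb next to the second window held all 21 H3K4me2 peaks and 5 LSD1 peaks. There H3K4me2 to IgG was 2.87 (2.59 to 3.17) and LSD1 to IgG was 1.98 (1.78 to 2.20). LSD1 to H3K4me2 was 1.37 (1.26 to 1.48) in the part without peaks and 0.691 (0.642 to 0.743) in the peak-bearing part. The latter interval overlaps that of both windows together, 0.634 (0.608 to 0.661). The cut was placed by the peaks, so these values are a description only. The peak-bearing part runs on into the second window, since a run of 13 H3K4me2 peaks from 23487998 to 23556605 crosses the window's edge.

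H3K4me2 peaks were dense in the windows. There were 39 in the first, or 86.7 per Mb (61.6 to 118), and 37 in the second, or 106 per Mb (74.4 to 146). The genome held 12.5 per Mb and chromosome 13 held 10.8. The peaks covered 6.43% of the windows against 1.07% of the genome. Over all 6614 tiles of 400 kb on a fixed grid the median was 1 H3K4me2 peak and the 99th percentile was 38. Each window lay near that upper end, though the windows span 0.45 and 0.35 Mb and were placed around the cluster.

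The peaks of the windows were narrow. Their width ran from 311 to 1810 bp with a median of 614.5 bp (597 in the first window, 657 in the second), against a median of 734 bp over all 32256 H3K4me2 peaks. Of the 76 peaks, 53 (69.7%) were narrower than that. Their H3K4me2 density had a median of 6.32 RPM per kb of peak against 6.67 over all peaks, and their reads had a median of 26 against 32.

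Neighbours stood close together. The nearest H3K4me2 peak was a median of 608 bp away (quartiles 140 and 3153 bp) against 1183 bp over all peaks. For 49 of the 76 peaks (64.5%) it lay within 1 kb and for 73 (96.1%) within 10 kb, against 47.9% and 73.4% of all peaks. When peaks within 1 kb were joined, the windows gave 47 domains, of which 20 (42.6%, exact interval 28.3 to 57.8) held more than 1 peak, against 28.3% of domains in the genome, which is at the lower edge of that interval. The share of domains of 2 kb or more was 17.0% in the windows and 17.1% in the genome.

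The domains of 2 kb or more in the windows numbered 8, and 0 of them held an LSD1 peak (exact interval 0 to 36.9%), beside 38.8% of the 3996 domains of that width in the genome. The widest ran from 23593394 to 23599698, a stretch of 6305 bp with 4 peaks, and held 14 Input, 20 IgG, 96 LSD1 and 208 H3K4me2 reads. H3K4me2 exceeded IgG there 7.71-fold (4.86 to 12.9) and LSD1 exceeded it 3.91-fold (2.40 to 6.69). The next, from 23851938 to 23856223, also had 4 peaks, with 9 Input, 15 IgG, 50 LSD1 and 118 H3K4me2 reads. Another, from 22086064 to 22089687, had 4 peaks as well, with 6 Input, 13 IgG, 52 LSD1 and 154 H3K4me2 reads. The other 5 started at 21806814, 23609242, 23621671, 23676726 and 23831794, spanned 2015 to 2464 bp and held 63 to 83 H3K4me2 reads and 22 to 32 LSD1 reads. In all 8 domains the intervals of H3K4me2 to IgG and of LSD1 to IgG lay above 1, beside 99.9% and 97.2% of such domains in the genome.

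Farther apart, the H3K4me2 peaks fell into runs with under 20 kb between neighbours, a grouping chosen after the positions were seen. The first window held 5 runs of 2 to 17 peaks and the second window 3 runs of 25, 2 and 9 peaks beside the end of the run that crosses its edge. The longest run of the windows, from 23583708 to 23679127, packed 25 peaks into 95420 bp. Runs were separated by stretches without an H3K4me2 peak of up to 118 kb inside the second window (before 23831794) and 90.7 kb inside the first (before 21974019). The first of these was not without reads, since its 10 kb bins from 23770001 and 23780001 held 82 and 69 H3K4me2 reads. LSD1 to H3K4me2 over whole runs ranged from 0.412 (0.317 to 0.531) at 21871376 to 21883274 to 0.598 (0.390 to 0.906) at 23712513 to 23713856 among those of the windows. The run across the edge, which lies mostly in the intervening stretch, gave 0.686 (0.627 to 0.751), above the interval of the longest run beside it, at 0.501 (0.456 to 0.549).

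All 76 H3K4me2 peaks of the windows had an interval of H3K4me2 to IgG above 1, beside 97% of all H3K4me2 peaks (intervals of single peaks are not adjusted for their number). Since the calls came from the same H3K4me2 reads, this is no independent result. Pooled over the 76 peaks, H3K4me2 exceeded IgG 9.35-fold (8.02 to 11.0), with 8.66 (7.07 to 10.7) in the first window and 10.3 (8.15 to 13.2) in the second, against 6.57 (6.54 to 6.61) over all H3K4me2 peaks. The IgG level was what differed most. In RPM per kb of peak, IgG stood at 0.728 in the windows' peaks and 1.09 over all peaks, or 0.667 of that level (0.573 to 0.773). H3K4me2 stood at 6.80 and 7.17, or 0.949 (0.910 to 0.989), and Input at 0.455 and 0.521, or 0.874 (0.702 to 1.08).

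The 15 peaks with the most H3K4me2 reads held 38 to 84 of them, 13 to 40 LSD1 reads, 1 to 10 IgG reads and 0 to 4 Input reads. The first ran from 22097667 to 22099476, the widest peak of the windows, with 2 Input, 4 IgG, 40 LSD1 and 84 H3K4me2 reads. It had the most LSD1 reads of the 76 peaks, with an LSD1 to IgG ratio of 8.15 (2.95 to 31.4), yet held no LSD1 peak. The second ran from 22088379 to 22089687, with 1 Input, 2 IgG, 21 LSD1 and 75 H3K4me2 reads. The third, from 23596869 to 23598502, held 2 Input, 5 IgG, 33 LSD1 and 73 H3K4me2 reads. In each of these the 2 controls were far below both ChIP libraries.

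The fourth peak, from 22005635 to 22006723, held 3 Input, 3 IgG, 31 LSD1 and 72 H3K4me2 reads. Its H3K4me2 density was above that of 98.6% of all H3K4me2 peaks, the highest place of any of the 76. The fifth, from 22072720 to 22073898, held 1 Input, 10 IgG, 32 LSD1 and 64 H3K4me2 reads and had the most IgG reads. Of the 15, the LSD1 to IgG interval lay above 1 in 11, beside 54.4% of all H3K4me2 peaks, and 2 held an LSD1 peak, beside 14.2% of all H3K4me2 peaks and 27.7% of those over 1000 bp. These 15 were picked for their reads, so the shares over all peaks are not matched to them. The others started at 22009645, 23593394, 21806814, 22127999, 22111771, 23713103, 23678143, 23654303, 22016891 and 23609242.

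At the other end, the 5 peaks with the fewest H3K4me2 reads held 11 to 13 of them, 2 to 7 LSD1 reads, 0 or 1 IgG read and no Input read. They started at 21882359, 23643887, 21872588, 22118527 and 23832805 and were 336 to 401 bp wide. At this depth the LSD1 to IgG interval held 1 in all 5.

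Reads of the LSD1 library followed the H3K4me2 peaks of the windows, at a lower level than in other H3K4me2 peaks. Pooled over the 76 peaks, LSD1 exceeded IgG 3.99-fold (3.40 to 4.72), with 3.76 (3.03 to 4.70) in the first window and 4.31 (3.36 to 5.60) in the second. Over all H3K4me2 peaks the ratio was 3.38 (3.36 to 3.40). The LSD1 level itself was lower in the windows, at 2.91 RPM per kb of peak against 3.68, or 0.789 of that level (0.738 to 0.843). IgG was lower too, as given above. Against Input, LSD1 stood at 6.38 (5.13 to 8.03) in the windows' peaks and 7.07 (7.01 to 7.14) over all. By window the Input ratio ran in the opposite order to the IgG ratio, with 8.60 (6.12 to 12.4) in the first and 4.88 (3.66 to 6.63) in the second. IgG to Input in the peaks was 2.29 (1.55 to 3.44) and 1.13 (0.785 to 1.64), on 36 and 53 Input reads, so no order of the windows in LSD1 held for both controls.

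In single peaks, 31 of the 76 (40.8%) had an LSD1 to IgG interval above 1, beside 54.4% of all H3K4me2 peaks. They were 15 of 39 in the first window and 16 of 37 in the second. The windows' peaks held fewer LSD1 reads, with a median of 11 against 15, and fewer reads make an interval above 1 harder to reach. In the 21 H3K4me2 peaks of the intervening stretch 15 passed, with a median of 15 LSD1 reads.

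Relative to H3K4me2, LSD1 was lower in the peaks of the Hist1 windows than elsewhere. LSD1 to H3K4me2 over the 76 peaks was 0.427 (0.394 to 0.462), split into 0.434 (0.390 to 0.483) in the first window and 0.419 (0.372 to 0.470) in the second. It was 0.514 (0.512 to 0.515) over all H3K4me2 peaks and 0.526 (0.473 to 0.585) in the 21 peaks of the intervening stretch. The odds ratio was 0.812 (0.711 to 0.928) against the intervening peaks and 0.858 (0.791 to 0.930) against the other 1185 peaks of chromosome 13. Of the 76 peaks, 54 (71.1%) lay below the median ratio of all H3K4me2 peaks, 0.509, computed with 0.5 reads added to each count. An interval below 1 was found in 48 of the 76, beside 57.9% of all H3K4me2 peaks. Without the 5 peaks that held an LSD1 peak the ratio was 0.408 (0.375 to 0.443), against 0.480 (0.478 to 0.481) in all H3K4me2 peaks without one.

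**Figure D2:**
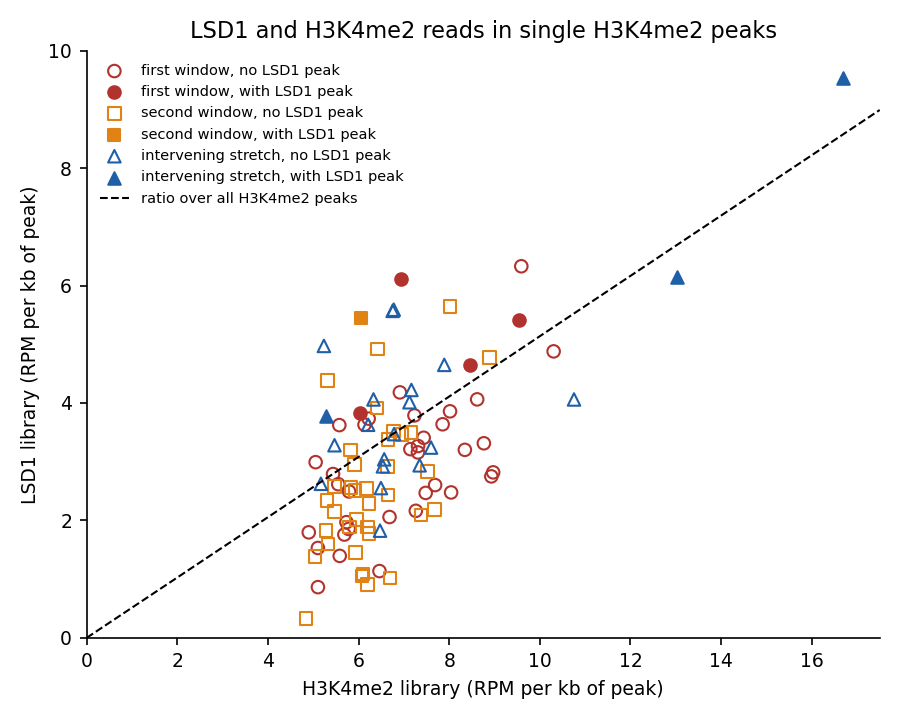
LSD1 against H3K4me2 reads, both in RPM per kb of peak, in the single H3K4me2 peaks of the first window (circles), the second window (squares) and the intervening stretch (triangles); filled symbols hold an LSD1 peak and the dashed line is the ratio over all H3K4me2 peaks, 0.514. Most peaks of the windows lie under the line, and the 2 points with the most H3K4me2 belong to the intervening stretch.

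The same comparison was made within classes of peak width. In peaks of up to 500 bp LSD1 to H3K4me2 was 0.457 (0.377 to 0.552) over the 23 of the windows and 0.492 (0.486 to 0.498) over all. Over 500 and up to 700 bp it was 0.425 (0.368 to 0.489) over 27 and 0.509 (0.505 to 0.512) over all. Over 700 and up to 1000 bp it was 0.413 (0.354 to 0.481) over 17 and 0.517 (0.513 to 0.520) over all. Above 1000 bp it was 0.425 (0.360 to 0.499) over 9 and 0.518 (0.515 to 0.520) over all. The windows' value was lower in each of the 4 classes, and the intervals were apart in the 3 wider ones.

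**Figure D3:**
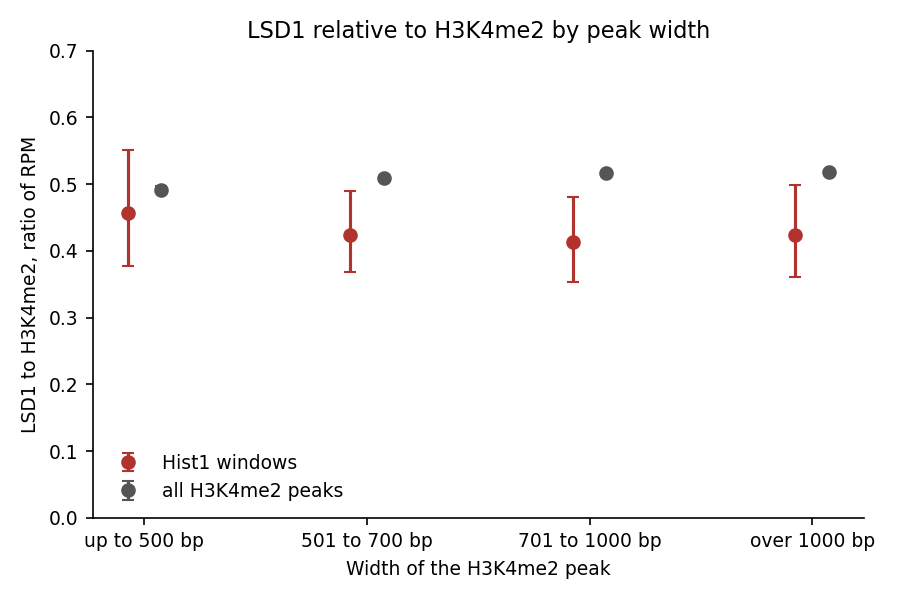
Ratio of LSD1 to H3K4me2 RPM in H3K4me2 peaks of the Hist1 windows (red) and in all H3K4me2 peaks (grey), by width of the peak; bars are exact 95% intervals for counting error. The values of the windows lie between 0.413 and 0.457 and those of all peaks between 0.492 and 0.518.

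The lowest and highest members show how far single peaks spread. Among peaks with at least 20 H3K4me2 reads, the lowest ratio was at 23851938 to 23852612, with 2 Input, 2 IgG, 4 LSD1 and 29 H3K4me2 reads, or an LSD1 to H3K4me2 ratio of 0.152 (0.0388 to 0.432). The peak from 23837477 to 23838422 held 0 Input, 1 IgG, 6 LSD1 and 37 H3K4me2 reads, or 0.178 (0.0615 to 0.426). That from 21877752 to 21878354 held 1 Input, 5 IgG, 4 LSD1 and 25 H3K4me2 reads, and LSD1 was not above IgG there, at 0.652 (0.129 to 3.03). The other 2 of the lowest 5 started at 21841139 and 23593394.

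The highest ratio was at 23590105 to 23590670, with 0 Input, 2 IgG, 18 LSD1 and 22 H3K4me2 reads, or 0.900 (0.455 to 1.76). The peak from 22010685 to 22011133 held 1 Input, 1 IgG, 16 LSD1 and 20 H3K4me2 reads, or 0.880 (0.426 to 1.79). Both held an LSD1 peak. The other 3 of the highest 5, starting at 23555805, 23712513 and 22036522, held none, with ratios of 0.767, 0.704 and 0.660. The intervals of the lowest and the highest peak did not overlap, and both were picked as extremes of 76.

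Called LSD1 peaks stood at 1.98 per Mb in the genome and 1.47 per Mb on chromosome 13. The windows held 5, or 6.25 per Mb (2.03 to 14.6), with 4 in the first and 1 in the second. All 5 lay in an H3K4me2 peak, beside 91.7% of all LSD1 peaks. Seen from the mark, 5 of the 76 H3K4me2 peaks (6.58%, exact interval 2.17 to 14.7) held an LSD1 peak, beside 14.2% of all H3K4me2 peaks, which lies inside that interval. By width the shares were 4.35% of the windows' peaks of up to 500 bp against 5.00% of all, 7.41% against 8.30% over 500 and up to 700 bp, 5.88% against 13.2% over 700 and up to 1000 bp, and 11.1% (0.281 to 48.2) against 27.7% above 1000 bp. Over the 156 tiles of 400 kb with at least 30 H3K4me2 peaks, the number of LSD1 peaks ran from 1 to 19 with a median of 8 (quartiles 6 and 11). The windows, with 4 and 1, lay below the lower quartile. They span 0.45 and 0.35 Mb and were placed around the cluster, while the tiles lay on a fixed grid, so this ranking is rough.

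The LSD1 peaks of the windows were 286 to 432 bp wide and held 12 to 20 LSD1 reads each. That from 21974891 to 21975322 held 2 Input, 3 IgG, 16 LSD1 and 29 H3K4me2 reads, with an LSD1 to IgG ratio of 4.35 (1.24 to 23.3). That from 22010696 to 22011056 held 1 Input, 0 IgG, 15 LSD1 and 19 H3K4me2 reads. With IgG set to a floor of 3 reads LSD1 was 4.08-fold higher, and the lower bound of the exact interval was 2.92. That from 22016991 to 22017276 held 1 Input, 0 IgG, 12 LSD1 and 14 H3K4me2 reads. LSD1 was 3.26-fold higher on the same floor, with a lower bound of 2.27. The first of these LSD1 peaks lies in one of a close pair of H3K4me2 peaks, 271 bp apart, that make up a run of their own.

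The fourth LSD1 peak, from 22073169 to 22073599, had the most reads, with 0 Input, 6 IgG, 20 LSD1 and 33 H3K4me2 reads, and LSD1 exceeded IgG 2.72-fold (1.05 to 8.27). The single LSD1 peak of the second window, from 23590115 to 23590480, held 0 Input, 1 IgG, 13 LSD1 and 17 H3K4me2 reads, or 10.6-fold (1.59 to 450.4). In all 5 the interval lay above 1, beside 89.6% of all LSD1 peaks, and the peaks were called on these reads. The LSD1 density of the first and the last was low among LSD1 peaks, above that of 15.8% and 8.14% of the list. The fourth was above that of 85.8%.

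The 5 LSD1 peaks of the intervening stretch all lay within 0.188 Mb of the second window, and 2 of them were larger than any in the windows. That from 23493018 to 23494380 held 4 Input, 24 IgG, 106 LSD1 and 200 H3K4me2 reads. That from 23503117 to 23504895 held 9 Input, 21 IgG, 94 LSD1 and 199 H3K4me2 reads. Each held several times the LSD1 reads of any LSD1 peak of the windows, with ratios to IgG of 3.60 (2.29 to 5.87) and 3.65 (2.26 to 6.17). They lay in the 2 H3K4me2 peaks of the stretch with the most reads. The one from 23492616 to 23494771 held 8 Input, 29 IgG, 120 LSD1 and 231 H3K4me2 reads, and the one from 23502550 to 23505613 held 17, 32, 110 and 256 in that order. The next 8 by H3K4me2 reads, starting at 23391093, 23529041, 23390033, 23398542, 23460062, 23401269, 23377435 and 23392935, held 32 to 67 and no LSD1 peak. The LSD1 peak from 23409600 to 23409932, held 14 LSD1 reads in an H3K4me2 peak.

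The last 2, from 23523144 to 23523633 and from 23524434 to 23524670, lay outside H3K4me2 peaks. They held 23 and 11 LSD1 reads, 9 and 3 H3K4me2 reads, 4 and 2 IgG reads and no Input read. LSD1 to H3K4me2 was 2.81 (1.25 to 6.90) and 4.03 (1.07 to 22.5) there. The LSD1 peaks inside the windows all lay in H3K4me2 peaks, so a lower ratio in them follows in part from the peak calls. Their ratios ran from 0.607 to 0.943, and each interval held 1.

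Outside the called peaks the windows also stood above chromosome 13 in the ratios to IgG. Within 1 kb of an H3K4me2 peak H3K4me2 to IgG was 3.61 (3.16 to 4.14) in the windows, 2.55 (2.05 to 3.19) in the intervening stretch and 2.56 (2.49 to 2.63) over chromosome 13. LSD1 to IgG there was 2.25 (1.95 to 2.59), 2.04 (1.63 to 2.57) and 1.88 (1.83 to 1.94). The LSD1 level itself was not higher in the windows, at 1.22 RPM per kb against 1.43 in the intervening stretch and 1.27 over chromosome 13. IgG was lower there, at 0.542 against 0.700 and 0.675. More than 1 kb from any H3K4me2 peak the windows still had H3K4me2 above IgG at 1.48 (1.38 to 1.58) and LSD1 above IgG at 1.22 (1.13 to 1.31). The intervening stretch at that distance was below IgG in both, at 0.732 (0.682 to 0.785) and 0.923 (0.862 to 0.987). So was chromosome 13, at 0.751 and 0.885 (0.880 to 0.891). RPM counts all reads, and 80.0% of H3K4me2, 89.6% of LSD1 and 96.9% of IgG reads lay outside all called peaks. This scaling lowers the ratios to IgG away from peaks, so 1 is not a neutral level at this distance. It applies alike to every region, so it leaves their order unchanged. Most of the intervening stretch at that distance is its 1.16 Mb without peaks. Whether the windows differ there from its peak-bearing 0.188 Mb alone was not tested.

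At over 1 kb from a peak LSD1 to IgG was 1.22 in the first (1.10 to 1.34) and 1.22 in the second (1.09 to 1.35). More than 5 kb from any peak the windows' values fell to 1.13 (1.03 to 1.25) for H3K4me2 and 1.17 (1.06 to 1.28) for LSD1, against 0.713 (0.708 to 0.718) and 0.867 (0.862 to 0.873) over chromosome 13. By window, the first had 1.15 (1.00 to 1.31) for H3K4me2 and 1.14 (0.993 to 1.31) for LSD1 at that distance, and the second 1.12 (0.985 to 1.28) and 1.19 (1.04 to 1.36), so that 1 interval in each window held 1. Of the reads in the windows, 37.1% of H3K4me2 and 25% of LSD1 lay in H3K4me2 peaks, and 41.5% and 54.0% lay over 1 kb from one. In the controls 74.0% of IgG and 80.0% of Input reads of the windows lay at that distance.

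**Figure D4:**
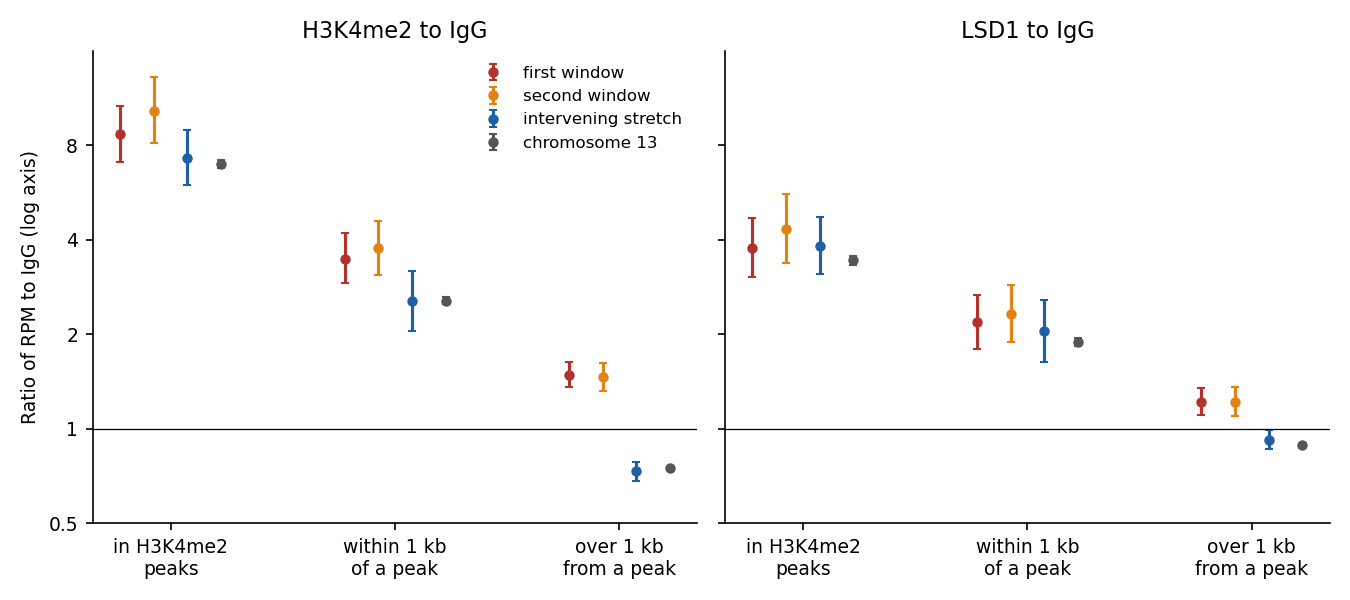
Ratio of H3K4me2 (left) and LSD1 (right) to IgG, on a log axis, in H3K4me2 peaks, within 1 kb of a peak and over 1 kb from a peak, for the 2 windows, the intervening stretch and all of chromosome 13; bars are exact 95% intervals for counting error. At over 1 kb from a peak both windows lie above 1 and the intervening stretch and chromosome 13 lie below it. Away from peaks 1 is not a neutral level, since RPM counts all reads of a library. Most of the intervening stretch at that distance is its long part without peaks.

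Both ChIP libraries were highest around the centres of the 76 peaks. In the 200 bp on either side of the centre H3K4me2 reached 7.50 RPM per kb (7.12 to 7.89), LSD1 3.19 (2.93 to 3.46), IgG 0.789 (0.650 to 0.947) and Input 0.433 (0.321 to 0.570). Around all H3K4me2 peaks these values were 7.93, 3.89, 1.09 and 0.467. The windows' LSD1 and IgG values were lower than those around all peaks, and their H3K4me2 interval lay below 7.91, the lower bound for all peaks. At 2 to 3 kb from the centre H3K4me2 was 1.84 (1.75 to 1.93) in the windows and 1.65 over all peaks, LSD1 was 0.987 (0.922 to 1.05) and 1.13, and IgG was 0.524 (0.473 to 0.580) and 0.702. At that distance, where close neighbours can also lie, H3K4me2 in the cluster was above its value around all peaks and LSD1 was below it.

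**Figure D5:**
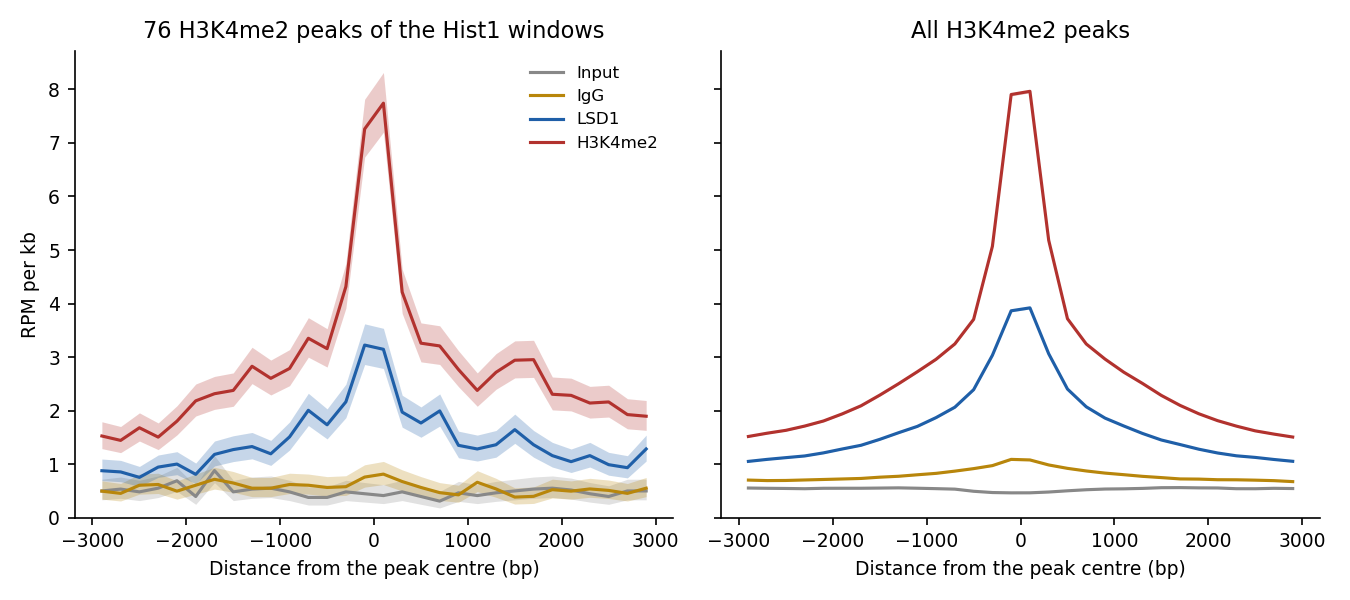
Mean reads in bins of 200 bp around the centres of H3K4me2 peaks, in RPM per kb, for the 76 peaks of the windows (left) and all H3K4me2 peaks (right); bands are exact 95% intervals for counting error. Near the centre LSD1 reaches about 3.2 RPM per kb in the windows and 3.9 over all peaks.

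Between close neighbours the reads dipped. The windows held 14 gaps of 100 to 600 bp (median 279 bp) with at least 300 bp of H3K4me2 peak on either side. H3K4me2 fell in the gaps to 0.235 of its density in the flanks (0.168 to 0.322), with 44 reads against 379; the gaps are themselves defined by the lack of an H3K4me2 call. In all 4585 such gaps of the genome the value was 0.345 (0.340 to 0.350). LSD1 in the windows' gaps stood at 0.582 of the flanks (0.403 to 0.826), against 0.677 (0.666 to 0.688) in the genome. The controls were also lower in the windows' gaps, with Input at 0.253 (0.0282 to 1.08) on 2 reads against 16. IgG stood at 0.472 (0.175 to 1.10) on 7 reads against 30. In the genome's gaps Input and IgG stood at 0.844 and 0.944. Whether the mark dips more than the placed reads in these gaps was not tested. LSD1 exceeded IgG 4.89-fold (2.18 to 12.9) inside the gaps, on 7 IgG reads, and 3.97-fold (2.66 to 6.09) beside them, and these intervals overlap.

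Many histone genes are near-identical copies. Whether short reads from such copies were kept in these files was not tested. Of the bins of 500 bp, 14.0% (11.8 to 16.4) of the first window and 4.43% (3.03 to 6.23) of the second held no read of any library, against 14.8% in the genome and 24.4% (22.8 to 26.1) in the intervening stretch. Stretches of at least 3 kb without a read numbered 4 in the first window, 1 in the second and 19 in the intervening stretch. They took 10.6%, 1.37% and 13.1% of these stretches. The longest of the first window ran from 21888734 to 21912620 and, with the one from 21924123 to 21938759, lies in the gap without peaks before 21974019. Over those read-free lengths a low level of the mark and a lack of placed reads cannot be told apart.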

How the data were processed

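ChIP-seq reads were analysed as deposited. Per the labels' protocols, chromatin was fixed with formaldehyde and sheared, and 36-base reads were taken from fragments of about 200 bp. The genome build was mm9, per the submitters' processing notes, and neither aligner nor peak caller is given in the sources used here. The authors deposited reads as 1 line each (a count of 1 in every line) and peak lists with positions and no score. Each library held every start and strand at most once. Read starts were moved 100 bp along their strand and counted by region. Ratios of RPM carry exact binomial 95% intervals conditional on both counts, shares Clopper-Pearson intervals, levels exact Poisson intervals, and ratios of ratios exact conditional odds ratio intervals. Pooled ratios and exact intervals used the counts as they were. Where a control count of 0 left no ratio for a single peak, the fold on a floor of 3 reads was given. Medians and rankings of single-peak ratios had 0.5 reads added to each count. No test between groups was possible with 1 library each. The windows, gene lists and measures were chosen with earlier results of these data known. Named by rule were every LSD1 peak of the windows and the intervening stretch, the 10 H3K4me2 peaks of that stretch with the most reads, and, in the windows, domains of 2 kb or more, the 15 H3K4me2 peaks with the most and the 5 with the fewest H3K4me2 reads, and the 5 highest and 5 lowest in LSD1 to H3K4me2 among those with at least 20 reads. Ratio intervals were tested on simulated data. The tools were numpy 2.4.6, scipy 1.17.1, matplotlib 3.10.9 and pandas 2.3.3 in Python 3.11.15.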

Additional observations from a re-analysis of the deposited data

How the results depend on the processing

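Over 12 results, 42 alternative values were computed; 34 lay inside the 95% interval of the value reported (for a count, within 1.5 times it), 8 lay outside and 0 reversed. No paired analysis was possible because no group had more than 1 library. Reversed meant a ratio on the other side of 1, so peak densities, shares and counts could not reverse. Nor could IgG to Input, whose interval held 1. LSD1 to H3K4me2 in peaks was not judged against its value over all H3K4me2 peaks. Leaving out IgG peaks changed nothing by construction, since none lies in the windows, and these values are among the 34. Scaled to reads outside all called peaks, H3K4me2 to IgG in the windows was 3.19, LSD1 to IgG 1.80, LSD1 to H3K4me2 0.566, LSD1 to IgG over 1 kb from a peak 1.32, and LSD1 to H3K4me2 in the windows' peaks 0.381, against 0.459 over all H3K4me2 peaks with that scaling. With windows narrowed by 50 kb at each edge H3K4me2 to IgG was 2.87. With only the denser 50% of each peak list (reads per length) the windows held 40 H3K4me2 peaks per Mb against 6.25 in the genome. In bins of 1 kb, 6.63% (5.00 to 8.58) of the windows held no read. The count of peaks with an LSD1 to IgG interval above 1 was 32 with starts not moved, 34 with Input as the control and 37 with the outside-peak scaling, against 53.9%, 68.0% and 59.3% of all H3K4me2 peaks. The alternatives for LSD1 to H3K4me2 in peaks and for LSD1 to IgG over 1 kb from a peak were chosen after seeing the data. Median counts of 2 IgG reads and 1 Input read per peak limit every single-peak ratio.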
